A study of Mus musculus with 30 samples.

Results

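Mesenchymal stem cells (MSCs) treated with CK666 for 4 h were compared with MSCs that received no treatment, by the accessibility of their chromatin. The comparison held 6 of the 30 ATAC-seq libraries of the series, 3 labelled CK666 and 3 labelled as untreated controls at the same time, chosen by their labels alone. The labels describe the MSCs as cells of male C57BL/6J mice, and the study's methods say that they were harvested from the marrow of several mice and kept in culture. The study states that 1 primary line, made from these mice, served throughout, so the libraries share their animals. No source says which libraries are separate cultures, so the p-values measure the spread between these libraries, which may be technical. The labels name no vehicle in the controls and give no dose. The other libraries used here were NIH 3T3 embryonic fibroblasts at 4 h and MSCs at 24 h, in each case 3 with CK666 and 3 untreated.

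CK666 is a small molecule that blocks the Arp2/3 complex, the machine that starts a new actin filament as a branch on the side of an old one. Actin monomers that are not built into filaments bind the coactivator MRTF and hold it away from SRF, which switches on genes of the contractile cytoskeleton through an A/T-rich element called the CArG box. Filament tension in the cytoplasm also governs YAP and its DNA-bound partner TEAD. Marrow MSCs can become osteoblasts or adipocytes, and the state of their actin is one of the signals known to bear on that choice. ATAC-seq inserts sequencing adapters into DNA that is not wrapped up, so the reads counted in a window of the genome measure how open that window is in the sampled cells. A window that opens in all cells by a little and one that opens in some cells by a lot cannot be told apart in such bulk libraries.

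The table listed 369846 windows of GRCm38 (mm10), and 306819 of them had enough reads to be tested. Control libraries held 29239381 to 30017192 counts and CK666 libraries 31634170 to 34979833. Counts are given below as normalized read counts per window, after scaling each library by TMM. A window was called gained or lost where its log2 fold change passed 1 in size and its adjusted p was below 0.01, with edgeR's quasi-likelihood test and Benjamini-Hochberg adjustment over all tested windows. Of 13 markers of marrow stroma, 10 had a window at their start, with a median of 161 control counts per kb and a range from 1.37 at Thy1 to 2283 at Ebf3, beside 367.9 for all starts of protein-coding genes. Of 7 haematopoietic markers only 2 had one, with 48.6 and 51.9 counts per kb, against 3 of 6 endothelial and 0 of 4 epithelial markers, and no window at the start of any of these markers was called.

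After 4 h of CK666, 1810 windows had opened and 1310 had closed, which is 0.59% and 0.427% of those tested, or 1.02% in both directions together. The gained windows had a median log2 fold change of 1.32 and were mostly weak before treatment, with a median control count of 24.8. The lost windows had a median log2 fold change of -1.26 and started higher, at a median control count of 63.1, beside 29.0 over all tested windows. Changes beyond 4-fold, a log2 fold change of 2, were seen in 180 gained and 96 lost windows. The 3 CK666 libraries lay wholly above the 3 control libraries in 1801 of the gained windows and wholly below them in 1300 of the lost windows, and the groups failed to overlap in 23.2% of all tested windows.

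The sequences under the strongest gains are shown first, because most of them share 1 short element. It is the C/EBP-ATF composite, TGATG followed by any base and AA, which is known as a site for pairs of a C/EBP protein with ATF4 or CHOP, the factors of the integrated stress response. The 68 bases around the element are printed for 7 of the 8 largest gains with at least 50 counts and for 3 further gained windows of listed genes. They were read from GRCm38 on the strand that holds the element, with the element in capitals.
Paqr3, chr5:97108500-97108567, minus strand: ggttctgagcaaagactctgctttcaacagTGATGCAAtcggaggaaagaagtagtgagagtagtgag
Hvcn1, chr5:122230284-122230351, minus strand: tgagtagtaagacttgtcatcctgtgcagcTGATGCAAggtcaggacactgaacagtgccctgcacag
Dlgap1, chr17:70690351-70690418, plus strand: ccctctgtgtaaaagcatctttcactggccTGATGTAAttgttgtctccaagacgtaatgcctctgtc
Amotl1, chr9:14576509-14576576, plus strand: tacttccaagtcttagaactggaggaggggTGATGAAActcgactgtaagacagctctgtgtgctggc
Dgkk, chrX:6709827-6709894, minus strand: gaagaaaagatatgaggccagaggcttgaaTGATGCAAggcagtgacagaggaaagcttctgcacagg
Col4a1, chr8:11206647-11206714, minus strand: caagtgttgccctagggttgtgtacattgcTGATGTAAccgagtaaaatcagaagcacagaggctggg
Rab22a intron, chr2:173690001-173690068, minus strand: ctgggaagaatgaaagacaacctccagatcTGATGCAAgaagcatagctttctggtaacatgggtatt
Arpc5l, chr2:39011501-39011568, plus strand: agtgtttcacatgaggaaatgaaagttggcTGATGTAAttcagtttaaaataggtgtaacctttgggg
Trib3, chr2:152350047-152350114, minus strand: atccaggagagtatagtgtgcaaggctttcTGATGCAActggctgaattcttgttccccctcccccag
Sesn2, chr4:132514080-132514147, minus strand: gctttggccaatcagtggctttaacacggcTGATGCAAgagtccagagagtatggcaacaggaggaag

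The search covered 150 bases on either side of each window centre. The match nearest to the centre is printed, here 5 to 92 bases from it. The Paqr3 window, in an intron 2645 bp from the start of this gene for a Golgi protein that tethers Raf kinase, rose from 21.4, 9.47 and 12.9 counts in the controls to 133, 128 and 143 with CK666. Its log2 fold change of 3.199 ± 0.244 (SE) was the largest among windows with at least 50 counts (adjusted p = 2.33e-18). A window in an intron of Hvcn1, a voltage-gated proton channel, 19927 bp from the start, rose from 17.1, 17.9 and 20.4 to 144, 142 and 152 counts (2.97 ± 0.222). In both windows every CK666 library stood far above every control library.

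**Figure D1:**
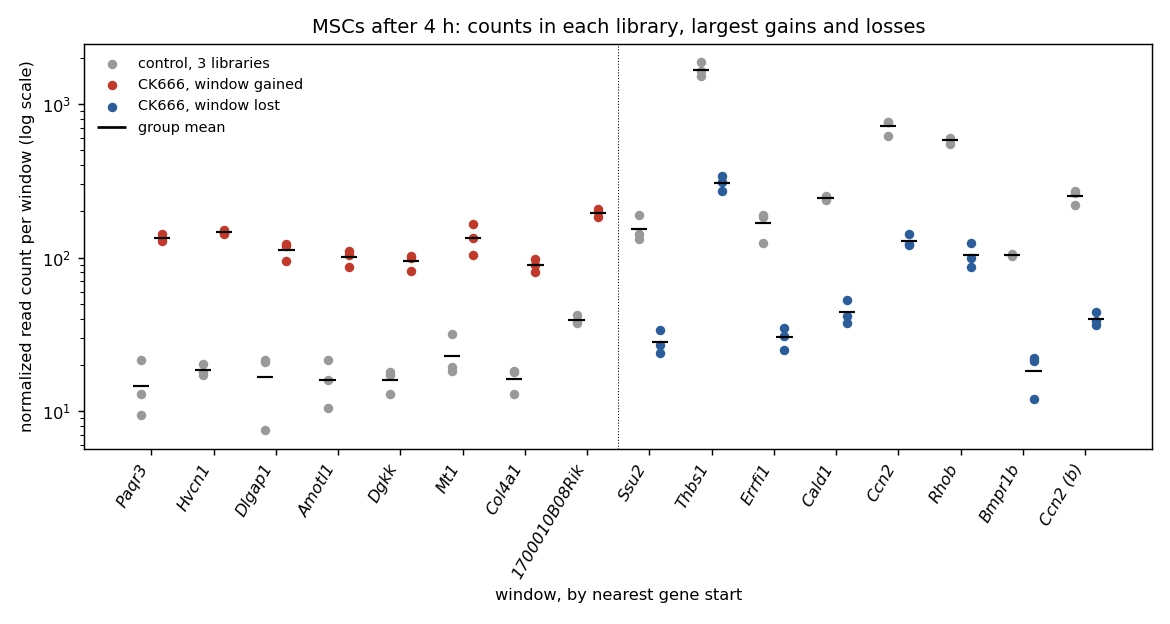
Normalized read counts of each of the 3 control and 3 CK666 libraries, on a log scale, in the 8 gained and 8 lost windows of largest fold change with at least 50 counts; horizontal lines are group means and names are those of the nearest protein-coding gene start. The rule for choosing these 16 windows required groups that do not overlap, and the group means run from 14.6 to 135 counts at Paqr3 and from 1676 to 306 at Thbs1.

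Dlgap1, which encodes a scaffold of synapses, held a gained window 128608 bp from any protein-coding start, in its own intron, that went from 21.4, 21.04 and 7.502 to 95.5, 123 and 119 counts (log2 fold change 2.75 ± 0.255). Amotl1, a junction protein of the angiomotin family, gained an intronic window (16.0, 10.5 and 21.4 against 110, 103 and 87.1; 2.64 ± 0.259). The intergenic window near Dgkk, a diacylglycerol kinase gene on the X chromosome, rose from 12.8, 17.9 and 17.1 to 99.5, 103 and 81.4 (2.56 ± 0.260). The last of these lay 69210 bp from the nearest protein-coding start. Col4a1, a chain of basement membrane collagen, gained a window in its intron 72709 bp from a start (18.2, 17.9 and 12.9 against 80.6, 98.1 and 90.0; 2.45 ± 0.262). A window in an intron of Rab22a, an endosomal GTPase, was already at 37.4, 42.1 and 38.6 in the controls and rose to 197, 209 and 184 (2.32 ± 0.175). Mt1, which encodes a metallothionein that binds zinc and copper, had the exception among the 8 largest gains, since its window held no C/EBP-ATF element. That window lies 325 bp past the 3′ end of Mt1 and rose from 19.2, 31.6 and 18.2 to 165, 134 and 103 counts (2.54 ± 0.228).

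Over all gained windows, 26.9% held a C/EBP-ATF element within 150 bp of their centre (487 of 1810; 95% Wilson interval 24.9 to 29.0%, counting error only), beside 5.86% of all tested windows and 4.20% of lost windows. Read the other way, 2.71% of the 17975 tested windows with the element were gained and 0.306% were lost. The shares differed by the base at the free position. With C in that place, as TGATGCAA, the element stood in 12.98% of gained, 0.458% of lost and 1.39% of all windows, and 5.52% of the windows that held it were gained. With T or A the shares were 6.19% and 8.18% of the gained windows, beside 1.41% and 1.82% of all windows. With G, 1.05% of the gained windows held it, against 1.39% of all windows. Other elements more common in gains than in all windows included the C/EBP site (TTGCNNAA, 20.2% against 13.7%), the antioxidant response element or ARE (TGACNNNGC, 18.6% against 14.4%) and the RUNX site (AACCACA, 13.8% against 10.8%). The AP-1 site (TGANTCA), the most frequent of these elements in open chromatin, was less common in gains (21.4%) than in all windows (28.9%), although its longer form that joins an ARE (TGANTCAGC) was at 5.86% against 4.72%. The NFI site stood in 1.602% of gains and 1.03% of all windows. The C/EBP-ATF element and the split by its free base were added to the search after the first counts had been seen, and both strands were read for every motif.

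**Figure D2:**
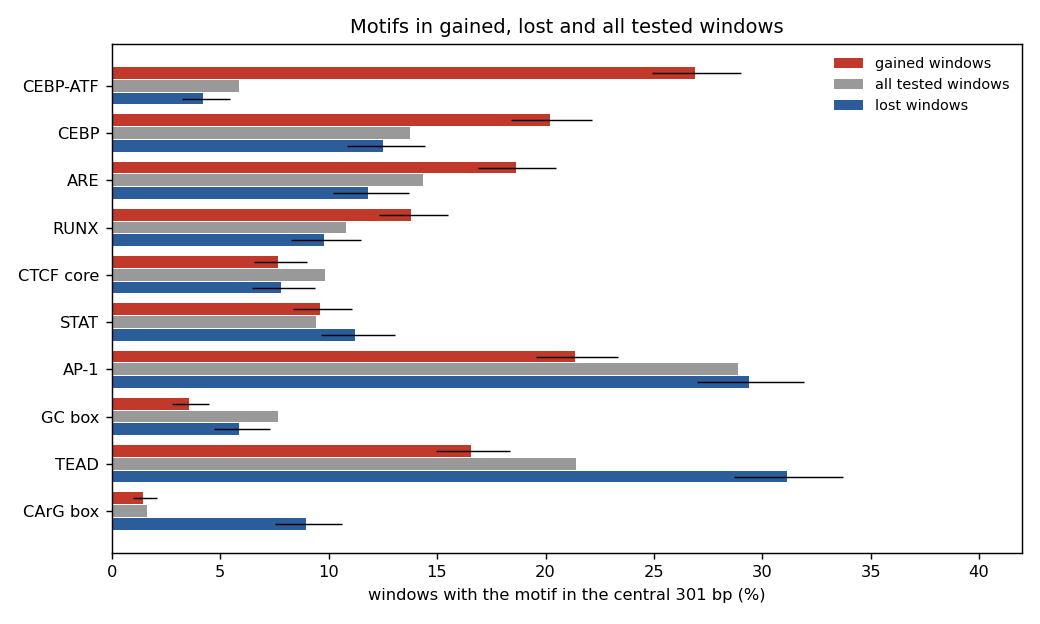
Share of gained, lost and all tested windows, in percent, that hold each motif within 150 bp of their centre; lines on the gained and lost bars are 95% Wilson intervals, which cover counting error only. The C/EBP-ATF element stands in 26.9% of gained windows against 5.86% of all windows, and the CArG box and the TEAD site in 8.93% and 31.1% of lost windows against 1.63% and 21.4%.

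The lost windows were marked by other letters. A TEAD site (GGAATG) stood in 31.1% of them (28.7 to 33.7%), against 16.6% of gains and 21.4% of all windows. A CArG box, 2 C, 6 bases of A or T and 2 G, stood in 8.93% (7.51 to 10.6%), against 1.44% of gains and 1.63% of all windows. Among the 5006 tested windows with a CArG box 2.34% were lost, and among the 1269 that held both a CArG box and a TEAD site 3.23% were lost and 0.315% gained. Windows with a TEAD site and no CArG box were lost in 0.57% of cases, and windows with neither in 0.348%. With the search narrowed to 75 bp on either side of the centre the CArG box stood in 5.88% of losses and 0.825% of all windows. The CArG box is shown in capitals in a pair of lost windows, those at the starts of Lpp and 1700009N14Rik.
Lpp, chr16:24447918-24447987, plus strand: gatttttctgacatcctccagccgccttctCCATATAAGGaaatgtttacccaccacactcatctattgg
1700009N14Rik, chr4:39450165-39450234, plus strand: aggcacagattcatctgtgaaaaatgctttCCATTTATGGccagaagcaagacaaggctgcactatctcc

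The losses of largest size are given next. Ccn2, a secreted matricellular protein and a classic YAP target, lost the window across its 3′ end, from 264, 270 and 219 counts to 38.8, 44.2 and 36.4, a log2 fold change of -2.65 ± 0.164 (adjusted p = 2.21e-23). The next window downstream of Ccn2 fell from 769, 762 and 620 to 120, 123 and 142 counts (-2.48 ± 0.1002). At Rhob, a small GTPase of endosomes and stress fibres, the window across the 3′ end went from 599, 597 and 551 to 99.5, 125 and 87.1 (-2.48 ± 0.109). Thbs1, which encodes the matrix protein thrombospondin 1, had the best-covered of these losses: 1633, 1870 and 1527 counts in the controls against 338, 309 and 270 with CK666 (-2.46 ± 0.0745, adjusted p = 3.98e-44). In all 4 windows every CK666 library lay far below every control library.

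The window past the end of Lmcd1, a LIM-domain gene, fell from 188, 142 and 133 to 26.9, 33.6 and 23.9 counts (-2.44 ± 0.205), although the nearest start is that of Ssu2, 55422 bp away. Errfi1, a feedback inhibitor of the EGF receptor, lost an intergenic window 18075 bp from its start (185, 190 and 125 against 34.8, 30.9 and 24.9; -2.46 ± 0.200). A pair of intergenic windows was lost 60953 and 63422 bp from the start of Bmpr1b, a BMP receptor, and past the 3′ end of Pdlim5. The larger change there was from 106, 102 and 104 to 11.9, 22.1 and 21.1 counts (-2.48 ± 0.246). Cald1 encodes caldesmon, which binds actin and tropomyosin, and an intronic window of it fell from 249, 237 and 251 to 41.8, 53.1 and 37.3 (-2.47 ± 0.161).

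Few promoters passed both limits, and smaller changes at starts are not counted here. Of 15505 tested windows at the start of a protein-coding gene, 20 were gained (0.129%) and 14 lost (0.0903%). Among 9581 starts with at least 200 control counts none was gained and 3 were lost, while 23561 windows of the same depth away from a start held 18 gains and 152 losses (0.645%). The distal shares of the calls were close to those of all tested windows: 46.3% of gains and 47.9% of losses lay 5 to 50 kb from a protein-coding start, beside 41.7% of all, and 36.9% and 39.4% lay further away, beside 36.9% of all. The share of all counts that fell in windows at a start was 30.8, 30.7 and 30.3% in the control libraries (mean 30.6 ± 0.287, SD, n = 3) and 30.5, 29.8 and 29.8% with CK666 (30.1 ± 0.405). The difference of -0.507 percentage points had an exact two-sided permutation p of 0.2, where 0.1 is the smallest that 3 against 3 libraries can give.

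**Figure D3:**
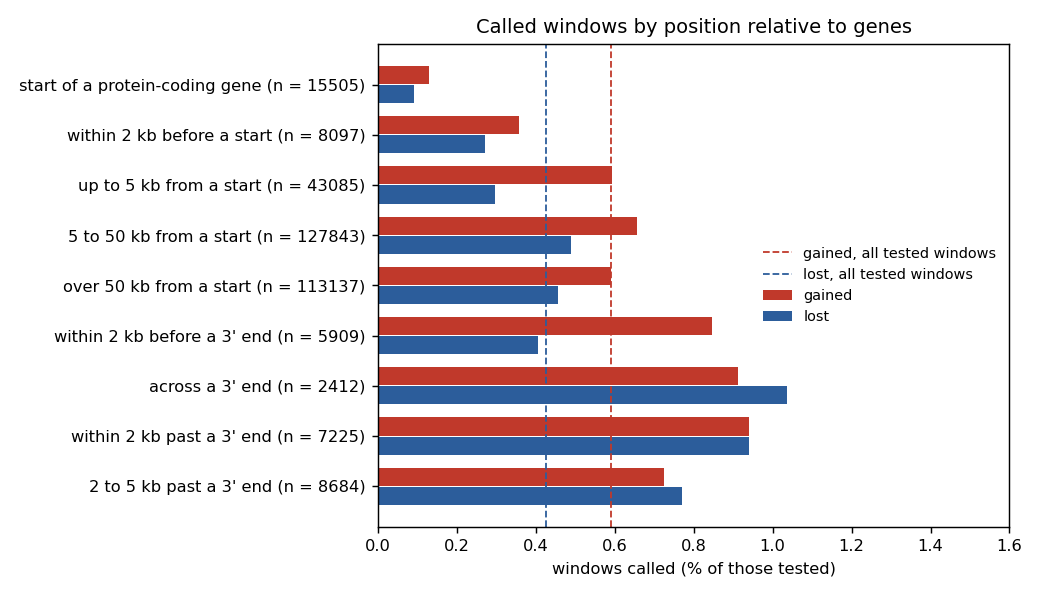
Share of tested windows called gained or lost, in percent, for windows at each position relative to protein-coding genes; n is the number of tested windows and dashed lines mark the shares over all tested windows, 0.59% gained and 0.427% lost. Starts stand lowest (0.129% and 0.0903%), and windows across a 3′ end or up to 2 kb past it stand highest in both directions. Windows 2 to 5 kb past an end (0.726% and 0.772%) and, by less, those over 5 kb from a start also stand above both lines.

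Of the starts that did open, Gsta3, a glutathione S-transferase, had the largest change with at least 50 counts, from 34.2, 26.3 and 35.4 to 112, 139 and 120 counts (log2 fold change 1.95 ± 0.209, adjusted p = 1.14e-11). The start of Nfe2l1, a factor of the NRF family that drives proteasome genes, was stronger to begin with and rose from 178, 185 and 135 to 415, 330 and 391 (1.19 ± 0.114). The start of Phyhd1 rose from 73.8, 94.7 and 75.02 to 233, 217 and 222 counts (1.46 ± 0.146), and its window held a C/EBP-ATF element. Cd74, the invariant chain of MHC class II, gained at its start too (43.8, 64.2 and 48.2 against 149, 117 and 143; 1.38 ± 0.187). The remaining starts among the 8 largest were those of Cdsn, Cxcr3, Tenm4 and Cd28, with log2 fold changes of 1.12 to 1.23. The Cd28 call was lost without control replicate 3. Adipoq, the fat cell hormone adiponectin, had a start too weak for that rule, at 6.42, 11.6 and 10.7 counts in the controls, which rose to 34.8, 47.7 and 37.3 (2.05 ± 0.361, adjusted p = 1.88e-05), although DESeq2 did not call it.

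The ARE is bound by NRF factors together with small MAF proteins. It is shown in capitals, with its surroundings, in 4 gained windows: the one 1706 bp from the start of Gclm, the start of Gsta3, the one that spans the 3′ end of Sqstm1, and the start of Nfe2l1.
Gclm, chr3:122243605-122243673, plus strand: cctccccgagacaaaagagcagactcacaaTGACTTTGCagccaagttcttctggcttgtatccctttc
Gsta3, chr1:21240434-21240502, plus strand: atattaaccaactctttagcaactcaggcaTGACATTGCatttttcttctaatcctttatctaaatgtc
Sqstm1, chr11:50198422-50198490, minus strand: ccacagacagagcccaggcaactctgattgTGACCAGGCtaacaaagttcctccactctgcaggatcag
Nfe2l1, chr11:96824491-96824559, plus strand: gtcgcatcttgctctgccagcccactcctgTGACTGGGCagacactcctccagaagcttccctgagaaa

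The starts that closed included some of genes known from smooth muscle. The start of Acta2, smooth muscle actin, fell from 476, 572 and 519 to 262, 265 and 221 counts (-1.07 ± 0.0947, adjusted p = 3.96e-15). The start of Myl9, its regulatory myosin light chain, fell from 178, 166 and 129 to 84.5, 85.8 and 58.4 (-1.04 ± 0.167). Both changes were close to the limit of 1, and the Acta2 call was lost without control replicate 2 or CK666 replicate 3 and the Myl9 call without control replicate 1 or CK666 replicate 3. The window at the outermost start of Cald1 fell from 1365, 1312 and 1200 to 667, 592 and 549 (-1.10 ± 0.0686). The start of Lpp, a LIM protein of focal adhesions, went from 192, 190 and 177 to 81.6, 79.6 and 88.1 (-1.17 ± 0.151). Ankrd1, a cardiac ankyrin repeat protein and a standard YAP target, had a start at 62.0, 67.3 and 68.6 counts that fell to 15.9, 30.1 and 29.7 (-1.37 ± 0.260). Further losses of this kind were at 1700009N14Rik, Clca3b and Gm45521, from -1.25 to -1.01, of which those at Clca3b and Gm45521 were lost without single libraries.

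The 250 bases before the start, from RefSeq on GRCm38.p6, are printed for Myl9 and Ankrd1, since each carries the element of its class in capitals. A CArG box begins 161 bases before the start of Myl9, and TEAD sites begin 210 and 123 bases before that of Ankrd1. Of 32851 RefSeq promoters of this length, 1.47% held a CArG box and 12.6% a TEAD site. The same stretch before Acta2 held 1 TEAD site and no full CArG box in these letters.
Myl9 promoter, chr2:156775214-156775463, plus strand: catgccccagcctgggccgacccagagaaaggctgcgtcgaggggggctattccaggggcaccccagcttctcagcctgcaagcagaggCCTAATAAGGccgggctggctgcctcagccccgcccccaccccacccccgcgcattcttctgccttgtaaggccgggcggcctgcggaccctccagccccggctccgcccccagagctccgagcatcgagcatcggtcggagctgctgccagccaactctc
Ankrd1 promoter, chr19:36119845-36120094, minus strand: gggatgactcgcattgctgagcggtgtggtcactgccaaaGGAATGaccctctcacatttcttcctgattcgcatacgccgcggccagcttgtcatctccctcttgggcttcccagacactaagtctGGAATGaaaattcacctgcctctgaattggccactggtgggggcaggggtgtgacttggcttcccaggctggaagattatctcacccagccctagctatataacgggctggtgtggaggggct

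Windows at the far ends of genes were called more often than those at starts. This position was looked at after the values had been seen. Windows across the 3′ end of a protein-coding gene, or up to 2 kb past it, were gained in 0.934% (90 of 9637) and lost in 0.965% (93) of cases, while windows up to 2 kb before a start were gained in 0.358% and lost in 0.272%. The median control count of the windows at ends, 33.3, was close to that of all tested windows. The shares were not confined to the end itself. Windows 2 to 5 kb past an end were gained in 0.726% and lost in 0.772% of cases. Windows up to 2 kb before an end were gained in 0.846% and lost in 0.406%. Of the 8 largest losses described above, 5 lay across an end or up to 2 kb past it: both windows at Ccn2 and those at Rhob, Thbs1 and Lmcd1. The gained ends lay at 84 genes and the lost ends at 86.

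The genes at lost ends were of many kinds and were not tested as a group; those named here, of the cytoskeleton, its adhesions and the matrix, were picked after their values were seen. The window just past the end of Anxa1, which encodes the membrane-binding protein annexin A1, fell from 296, 253 and 254 to 75.6, 42.4 and 68.0 counts (-2.12 ± 0.153). Zyx, which encodes zyxin of focal adhesions, lost a broad window past its end (852, 889 and 722 against 322, 330 and 299; -1.37 ± 0.0817) while the window at its start, with a mean of 5836 control and 5266 CK666 counts, had a log2 fold change of -0.15. Tagln2, a transgelin, fell from 584, 542 and 502 to 207, 249 and 186 (-1.34 ± 0.0978). Actb, cytoplasmic β-actin, lost the window across its end (609, 604 and 576 against 332, 264 and 260; -1.07 ± 0.0897) and another 1314 bp past it (-1.22 ± 0.144), but its start went the other way, from a mean of 469 to 674 counts, a log2 fold change of 0.52 that stayed under the limit for a call (adjusted p = 1.05e-06). Lost ends were also found at Fhl2 (-1.69), Inhba (-1.99), Tpm4 (-1.27) and Fn1 (-1.22 and -1.04).

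The gained ends were as mixed, and the genes of oxidative, metal and amino acid stress named here were picked in the same way. A window of 10978 bp that covers the body and end of Hmox1, haem oxygenase 1, rose from 772, 835 and 763 to 2587, 2254 and 2118 counts (1.55 ± 0.0612, adjusted p = 5.20e-36), while the separate window at its start fell from a mean of 1029 to 741 counts, by 0.47 on the log2 scale. Fth1, the ferritin heavy chain, gained the window across its end (278, 288 and 209 against 796, 714 and 724; 1.52 ± 0.0893). Cebpa, a master factor of adipocytes, gained across its end (106, 115 and 96.5 against 342, 292 and 349; 1.63 ± 0.125), and its start window was at 1321 and 1422 counts, a log2 fold change of 0.11. Chac1, which degrades glutathione, gained 3 windows within 2 kb past its end, by 1.51 to 1.86. Both Ddit3, which encodes CHOP, and its neighbour Mars, the methionyl-tRNA synthetase gene, end in this way: the strongest of their 3 gained windows rose from 69.5, 77.9 and 67.5 to 390, 345 and 318 (2.29 ± 0.133), with the start of Ddit3 at 2847 and 2922 counts.

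In a few genes, losses were found in many windows of the gene body. Of the 71 tested windows for which a start of Cald1 was nearest within 50 kb, 17 were lost, none was gained and 67 had a negative log2 fold change. Of 72 windows counted for the gene body, 23 were lost and 71 had a negative value, with a median log2 fold change of -1.04. The lowest window, 48801 bp from the nearest start, went from 36.4, 27.4 and 18.2 counts to 0, 1.77 and 1.92. Actn1, which encodes the crosslinker alpha-actinin 1, had 12 of 45 windows lost (median -0.89), Fstl1, a secreted follistatin-like protein, 9 of 35 (-0.71), Pdlim5, a PDZ and LIM protein of the Z-disc and stress fibres, 19 of 83 (-0.64), and Esyt2, a tether between endoplasmic reticulum and plasma membrane, 13 of 66 (-0.68). None of these genes held a gained window. Among 4001 protein-coding genes with at least 10 tested windows, 23 had a median under -0.5 and 14 a median over 0.5, with 0.01 as the median of all. Plin2, the coat protein of lipid droplets, was highest at 0.81 over 11 windows, with 1 gained. Gene bodies were summarized in this way after the values had been seen.

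**Figure D4:**
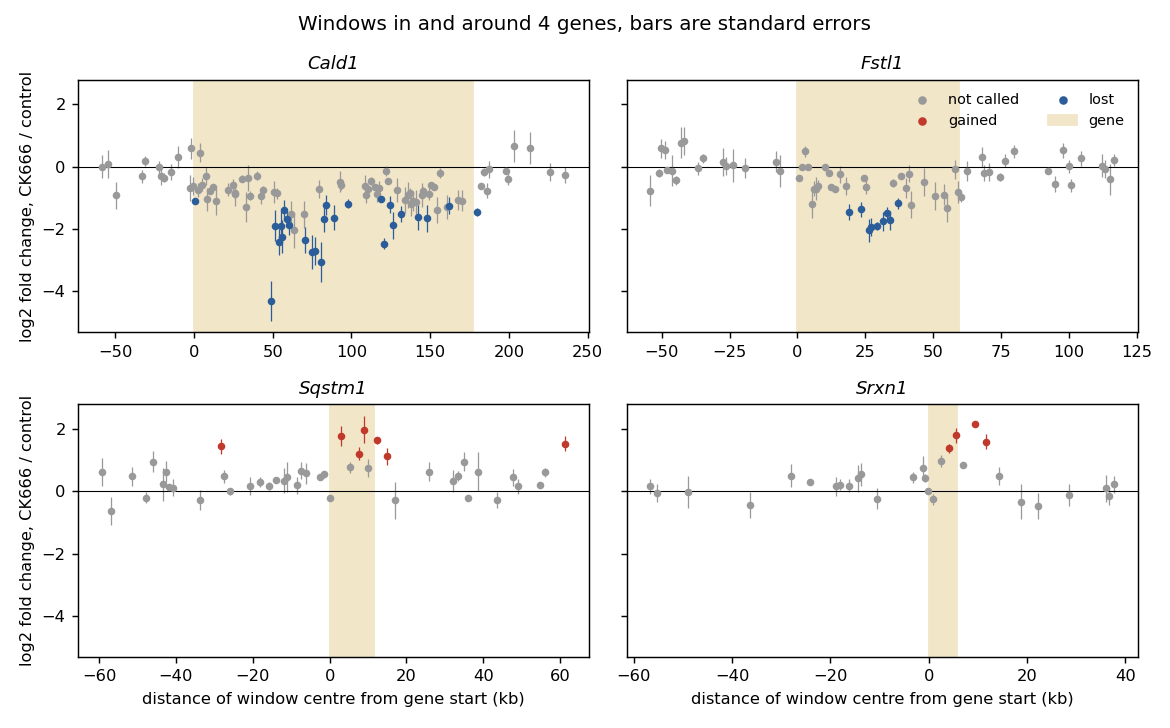
Log2 fold changes (CK666 over control) with standard errors of every tested window in and around Cald1, Fstl1, Sqstm1 and Srxn1, against the distance of the window centre from the gene start in kb; shading is the gene, blue points were lost and red points gained. In Cald1 and Fstl1 the points lie below 0 along most of the gene, and in Sqstm1 and Srxn1 most gains lie in the gene and past its end while the windows at the starts are at -0.21 and 0.02.

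The genes with most lost windows nearby after Cald1 were Cbr4, Zfp184, Fstl1, Slc2a9 and Ccni. The name of the nearest start was of little use for some of them. All 11 lost windows assigned to Cbr4 lay in or at the end of Palld, which encodes the actin-bundling protein palladin, and reached a log2 fold change of -2.93. The 7 assigned to Slc2a9 were intergenic within 8.67 kb of each other, with the strongest from 49.2, 54.7 and 47.2 to 12.9, 8.84 and 9.57 counts (-2.26 ± 0.330). In this group, windows of -1.44 and -1.46 lay 1120 and 1917 bp past the 3′ end of Wdr1. The 7 assigned to Ccni, cyclin I, lay in Ccni and in the neighbouring septin gene Sept11. Among gains, 5 of 9 windows assigned to Sqstm1 were called, 4 of 14 at Srxn1, 4 of 46 at Gadd45a, and 3 each at Ddit3, Aox4 and Map4k3; those at Aox4 lay in the intron of Aox3, an aldehyde oxidase. Sqstm1 encodes the autophagy receptor p62, and its best-covered gained window spans its 3′ end, with 139, 214 and 153 counts in the controls and 549, 534 and 498 with CK666 (1.64 ± 0.106). Srxn1 encodes sulfiredoxin, which repairs oxidized peroxiredoxins, and its window past the end rose from 142, 139 and 118 to 597, 600 and 589 (2.16 ± 0.102), while its start stood at 1298 and 1314 counts (0.02).

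Gene lists were then read as groups, with each tested window assigned to the nearest protein-coding start within 50 kb. Over the 191802 windows so assigned, 0.593% were gained and 0.410% lost. The NRF2 targets, genes of glutathione synthesis, thiol repair and iron handling, had 15 of 214 windows gained (7.01%) and none lost. The gains fell near 9 of 15 genes: Fth1, Gclm, Gsta4, Gstm1, Hmox1, Me1, Prdx1, Slc7a11 and Srxn1. Gclm, the modifier subunit of the enzyme that starts glutathione synthesis, gained a window 1706 bp from its start (6.42, 9.47 and 9.65 against 43.8, 30.9 and 41.2; 2.16 ± 0.374). Slc7a11, the cystine importer, gained 3 windows, by at most 2.03, and the window of that size, like the one near Prdx1, lost its call without single libraries. DESeq2 did not call the Gclm window. None of the 17 tested starts of the list was called. They ranged from -0.47 at Hmox1 to 0.52 at Slc7a11, both under the fold limit, with edgeR adjusted p of 4.83e-07 and 2.72e-06. Nqo1, Gclc, Txnrd1, Osgin1, G6pdx and Ftl1 had no called window.

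The unfolded protein response list had 11 of 224 windows gained (4.91%) and 1 lost. The gains were near Ddit3, Trib3, Chac1, Sesn2 and Atf6. Trib3, a pseudokinase induced with CHOP, gained 3 windows, the strongest of which holds the C/EBP-ATF element printed above and rose from 58.8, 46.3 and 39.7 to 188, 194 and 182 counts (1.96 ± 0.172). Sesn2, a sestrin that senses leucine, rose from 80.2, 74.7 and 59.0 to 224, 176 and 168 (1.40 ± 0.161). The members that moved are known as targets of ATF4 and CHOP, apart from Atf6 itself, whose single gained window had 8.55, 8.42 and 8.57 counts in the controls and lost its call when any 1 of the 6 libraries was left out. Other known targets of these factors in the list did not move: Asns, with 29 windows, and Ppp1r15a, with 3, had none called. Herpud1, with 14 windows, had none called either, and Atf4 itself had no tested window in this assignment. Chaperones and enzymes of protein folding in the list, such as Hspa5, Hsp90b1, Calr, Pdia6 and Creld2, had no called window. Pdia4 had 1 lost window, 33425 bp from its start, a call lost under 6 of 14 settings of the processing, DESeq2 and 4 single-library exclusions among them.

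The MRTF/SRF targets had 36 of 568 windows lost (6.34%) and 1 gained, and 17 of the 36 were at Cald1. The losses fell near 11 of 30 genes, Acta2, Actb, Actn1, Cald1, Fblim1, Fhl1, Fhl2, Flna, Myl9, Tagln2 and Tpm1. DESeq2 called 19 windows of this list lost. Flna, filamin A, lost a window 29431 bp from a start (55.6, 50.5 and 36.4 against 4.97, 7.96 and 8.62; -2.70 ± 0.365). Srf itself, Myh9, Vcl, Tagln, Zyx and the immediate early genes Egr1, Egr2, Egr3 and Fos had no called window in this assignment, and their starts ranged between -0.80 at Tagln and 0.11 at Fos. Lost windows past the ends of Zyx and of other members, such as Wdr1, go to other starts in this assignment. Focal adhesion genes had 13 of 676 windows lost (1.92%) and 4 gained, near Actn1, Bcar1, Fermt2, Itga5 and Parva for the losses, and DESeq2 called 8 lost. Genes of myosin and RhoA-ROCK signalling had 4 of 371 lost and 1 gained. The YAP/TEAD targets had 8 of 710 windows gained and 8 lost (1.13% each). Housekeeping genes had similar shares, 1.25% each, from 2 gained and 2 lost of 160 windows. The YAP/TEAD losses were at Ankrd1, Asap1, Ccn2 and Fgf2, 4 of them at Ccn2. The gains were at Gadd45a, Myof, Ptpn14 and Ccn2, 4 of them at Gadd45a. The Asap1 window kept its call under 6 of 14 settings and the Fgf2 window under 9, and DESeq2 called neither.

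**Figure D5:**
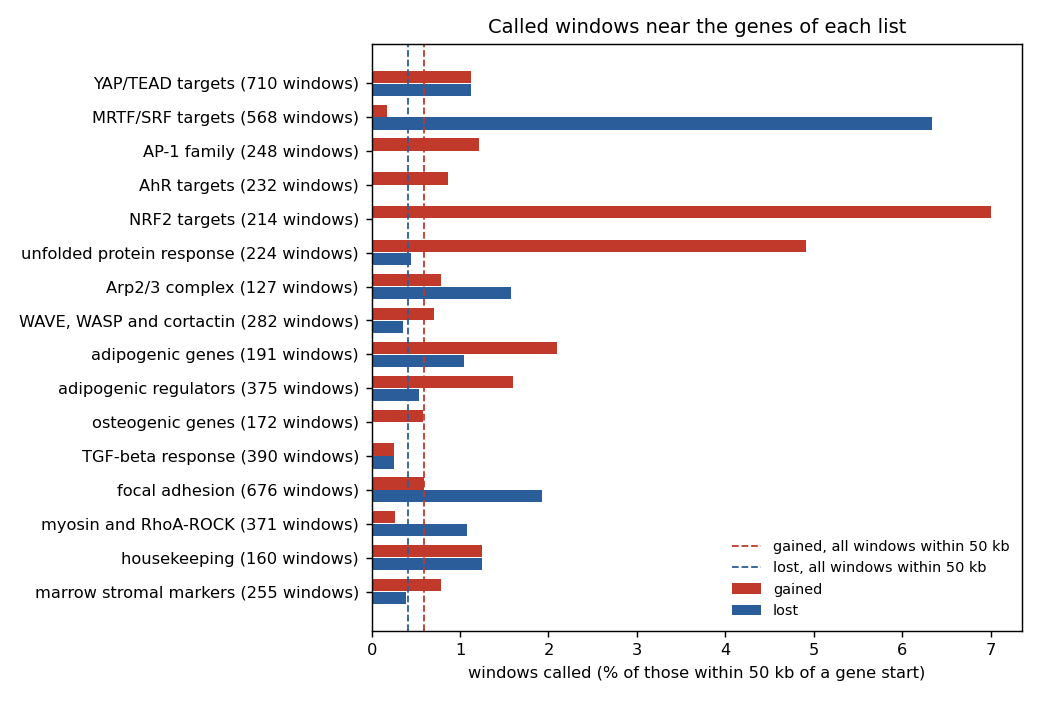
Share of windows called gained or lost, in percent of the tested windows within 50 kb of a start, for each gene list; dashed lines are the shares over all 191802 such windows, 0.593% gained and 0.410% lost. Gains lead near NRF2 targets (7.01%) and genes of the unfolded protein response (4.91%), and losses near MRTF/SRF targets (6.34%).

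The target of the drug was also covered. Of the 10 genes of the Arp2/3 complex, Arpc5l, an alternative small subunit, gained a window 3062 bp from its start with a C/EBP-ATF element (16.0, 43.1 and 48.2 against 179, 174 and 164; 2.26 ± 0.200). Actr2 and Actr3, the actin-related proteins themselves, each lost 1 window (-1.42 and -1.10), and both calls were lost without control replicate 3. The 11 starts of the complex had log2 fold changes from -0.36 to -0.01, none called. Genes of the WAVE, WASP and cortactin group, which activate the complex, had 2 of 282 windows gained, near Jmy and Nckap1, and 1 lost, near Cyfip1, shares close to those of all windows. The Jmy call failed under 7 of 14 settings and the Cyfip1 call when any of 4 single libraries was left out.

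Among genes of the lineages, 12 adipogenic genes picked by the study had 4 of 191 windows gained, near Adipoq, Cebpa and Plin1, and 2 lost, near Adipor2, of which DESeq2 called 2 and 1. The stronger loss assigned to Adipor2 (-1.49) lies 95 bp past the 3′ end of another gene, Wnt5b. A further list of adipogenic regulators had 6 of 375 gained and 2 lost; the gain of best coverage, near Ebf2, went from 130, 141 and 144 to 316, 317 and 295 counts (1.16 ± 0.118). Pparg, with 47 windows, had none called and a start at 0.12. The 11 osteogenic genes of the study had 1 of 172 windows gained, near Atoh8, and none lost; the Atoh8 call was lost under 6 of 14 settings, GC offsets among them. Both lists were taken from the study. In the remaining lists, AP-1 genes had 3 of 248 windows gained, all near Atf3, and AhR targets 2 of 232, near Ahrr and Ugt1a6a, neither called by DESeq2. TGF-β response genes had 1 of 390 gained and 1 lost, housekeeping genes 2 of 160 gained and 2 lost, and marrow stromal markers 2 of 255 gained and 1 lost. Haematopoietic markers had 2 of 54 lost, near Ptprc and Adgre1, both uncalled by DESeq2. Endothelial and epithelial markers had no called window among 76 and 41.

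The 10 lost windows at Zfp184 were intergenic, in a stretch of chromosome 13 rich in tRNA genes, so windows over tRNA genes were collected, after these values had been seen. Of 207 tested windows over 1 or more of 403 RefSeq tRNA genes, 24 were lost (11.6%) and none was gained, 174 were negative, and the median log2 fold change was -0.24. On chromosome 13, 21 of 85 were lost (24.7%), and elsewhere 3 of 122 (2.46%). The windows on chromosome 13 were weaker, with a median control count of 165 against 449 elsewhere, and the part of depth in this contrast was not tested. tRNA genes carry their promoter inside the transcribed part, and its downstream element, the B box, is printed in capitals for 5 genes. It was found (GTTCNANNC) in 92.9% of the tRNA genes in tested windows. Of these, n-TSaga6 and n-TSaga9 are the same 82 letters at 2 places in the genome, as n-THgtg6 and n-THgtg4 are the same 72. These pairs were picked by their values. Their log2 fold changes lay furthest apart, by 1.82 and 1.66, among 30 sets of tRNA genes with the same letters.
n-TStga2, chr13:21924935-21925016, minus strand: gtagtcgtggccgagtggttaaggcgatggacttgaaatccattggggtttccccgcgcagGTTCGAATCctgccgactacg
n-TSaga6, chr13:21927857-21927938, plus strand: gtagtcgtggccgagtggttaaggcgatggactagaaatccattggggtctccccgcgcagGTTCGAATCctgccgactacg
n-TSaga9, chr4:10874064-10874145, plus strand: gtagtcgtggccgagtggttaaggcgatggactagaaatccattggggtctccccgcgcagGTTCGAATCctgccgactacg
n-THgtg6, chr3:96410069-96410140, plus strand: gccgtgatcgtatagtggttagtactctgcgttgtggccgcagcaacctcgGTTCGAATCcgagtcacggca
n-THgtg4, chr2:122375494-122375565, minus strand: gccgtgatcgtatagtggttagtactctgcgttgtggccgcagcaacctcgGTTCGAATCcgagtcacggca

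The window over n-TStga2 fell from 82.3, 84.2 and 66.5 to 15.9, 12.4 and 11.5 counts (-2.54 ± 0.281), the lowest of the tRNA windows. That over n-TSaga6, on chromosome 13, fell from 93.0, 84.2 and 62.2 to 23.9, 24.8 and 15.3 (-1.90 ± 0.258), whereas its copy n-TSaga9 on chromosome 4 stood at means of 842 and 799 counts (-0.08). For the histidine pair the values were -1.75 at n-THgtg6, with means of 30.1 and 9.01 and a call that did not hold without single libraries, and -0.09 at n-THgtg4, with 1157 and 1090. Of 30 sets of tRNA genes with the same letters that lie alone in a tested window, 6 held both lost and uncalled genes and none was lost throughout. Reads that start inside identical genes cannot be placed by their own letters, which limits each single value here.

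NIH 3T3 fibroblasts, measured in the same windows at the same time, show the same treatment in another cell type. Of the windows gained in MSCs, 1491 of 1810 also had a positive log2 fold change in NIH 3T3, with a median of 0.74, and 448 (24.8%) passed both limits there. Of the windows lost in MSCs, 810 of 1310 were negative, with a median of -0.18, and 90 (6.87%) passed both limits. The shares of all tested windows that moved in NIH 3T3 are not given here, so these counts have no background beside them. The difference between the cell types was tested as an interaction. Over 368794 windows tested, the CK666 effect was higher in MSCs in 3339 (0.905%) and lower in 1837 (0.498%), a split that depended on the scaling, with 2342 and 2728 after scaling by total counts alone and 4263 and 1434 in DESeq2. Among windows lost in MSCs, 262 had a significantly lower effect in MSCs than in NIH 3T3, and among those gained, 111 had a higher one. These windows were chosen for their change in MSCs, which favours the larger effect there.

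Thbs1 differed most plainly among the large losses: the window that fell in MSCs rose in NIH 3T3 from a mean of 203 to 614 counts (1.601), and the interaction was -4.05 (adjusted p = 2.66e-33). The window near Lmcd1 was at 0.21 in NIH 3T3 and that of Errfi1 at 0.10, with interactions of -2.66 and -2.56. The largest loss, across the end of Ccn2, was at -2.65 in MSCs and -0.79 in NIH 3T3, with an interaction of -1.85 (adjusted p = 1.41e-06), and the Rhob window at -2.48 and -1.06, with one of -1.42. At the further Ccn2 window the effect had the same sign in both cell types, -2.48 and -1.57, and the interaction of -0.91 stayed within the fold limit. Among gains, the effects at Paqr3 (3.199 and 2.77), Amotl1 (2.64 and 2.92), Col4a1 (2.45 and 2.58) and Arpc5l (2.26 and 2.37) did not pass the interaction test, with adjusted p of 0.57 or more. Mt1 did, with 2.54 in MSCs and 0.33 in NIH 3T3 (adjusted p = 2.50e-04). So did the broad Hmox1 window (1.55 and 0.29), the Srxn1 window past the gene's end (2.16 and 0.16) and the Sqstm1 end (1.64 and 0.23).

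The libraries of MSCs treated for 24 h came from another table with its own controls, scaled on its own, and were set beside the 4 h values with no test. Of the windows gained at 4 h, 1767 met a window of the 24 h table, and in 1641 of these (92.9%) the mean at 24 h was higher with CK666, with a median log2 ratio of 1.17. Of the windows lost at 4 h, 1045 met one, and in 944 (90.3%) the mean at 24 h was lower, with a median of -0.70. Over all tested windows with a partner, 48.7% were positive and the median was -0.01. The 3 CK666 libraries at 24 h lay above all 3 controls in 73.3% of the gained windows with a partner and below them in 51.7% of the lost ones, against 13.7% and 14.6% of all. Single windows went different ways. The ratio at 24 h was 4.55 at Dlgap1 and 3.99 at Hvcn1, where the 4 h log2 fold changes were 2.75 and 2.97, and 1.85 at Paqr3. At Cebpa and Hmox1 the gains of 1.63 and 1.55 at 4 h stood beside ratios of 0.09 and 0.02 at 24 h. Among losses the ratio was -2.63 at Thbs1, -2.44 at Errfi1 and -2.26 at the further Ccn2 window, and 0.19 past the end of Lmcd1. Over the tRNA windows with a partner, 175 of 200 had a negative ratio at 24 h, with a median of -0.39. In NIH 3T3 at 4 h the median over tRNA windows was -0.07 and 15 of 207 were lost, 13 of them on chromosome 13. The share lost over all NIH 3T3 windows is not given here, so this count has no background beside it. No tRNA window passed the limits of the interaction test between the cell types.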

How the data were processed

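Chromatin accessibility was measured by Omni-ATAC. Per the study's methods, the authors aligned reads with bowtie2 within PEPATAC, called peaks with MACS2 and took, for each condition, all peaks found in any replicate. The deposited 4 h table holds 1 set of windows for all its libraries. The build is mm10 in the submitters' processing notes. The deposited tables hold raw read counts per window for each library, one table for 4 h and another for 24 h. The sources used here do not state how duplicate reads were filtered.

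Groups were taken from the labels. Windows were filtered with filterByExpr and scaled by TMM, and the 3 CK666 and 3 control libraries were compared in edgeR 4.0.16 (R 4.3.3) with the quasi-likelihood test and Benjamini-Hochberg adjustment over 306819 windows. The study's limits were kept, a log2 fold change past 1 in size with its adjusted p below 0.01. The standard error is the log2 fold change over the root of the F statistic. The difference between MSCs and NIH 3T3 was an interaction term over 12 libraries. The 24 h table was scaled on its own and gives ratios of group means with no test. Library totals of 29239381 to 34979833 counts limit precision in weak windows. Intervals of shares and depths cover counting error only.

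Starts and ends of genes came from GENCODE release M21, without transcripts whose 5′ end is marked as unknown. In a check of the build, 45.6% of gene starts fell in a window, against 14.3% after a shift of 20000 bp. Each window was named by the nearest protein-coding start. tRNA genes and promoters came from RefSeq on GRCm38.p6.

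Named windows were the 8 largest gains and losses with a mean of at least 50 counts and no overlap of groups, the same at gene starts, the 3 largest of each direction over 50 kb from a start, the 6 genes with most called windows in each direction, called windows of 19 gene lists, and the 3 largest differences from NIH 3T3 in each direction. Windows at gene ends, in gene bodies and over tRNA genes were named after their values were seen. A few windows that this rule names are not reported here. The members and lists were chosen with earlier results of these data known. On simulated counts for this comparison, 72 of 100 windows changed by 1.5 and 89 of 100 changed by 2 on the log2 scale were recovered, with 0 false calls among 293763 windows. Only windows with a mean of at least 20 counts were changed, so recovery in weaker windows was not tested. The simulated spread followed a smooth trend with depth, so windows more variable than that trend were not covered. Alternatives were DESeq2 1.42.0, other scalings, no filter, GC offsets, a replicate block, other limits and each library left out.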

Additional observations from a re-analysis of the deposited data

Results flagged for a closer look

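Windows called in MSCs were flagged where the interaction test also placed the MSC effect further in the called direction than that of NIH 3T3. This was the case for 111 gained and 262 lost windows. For 7 gained windows the test passed in the opposite direction. By size the leading gains were near Lpo, with a difference of 3.78 on the log2 scale (NIH 3T3 means of 78.0 and 29.7 counts, control and CK666), near Aggf1, with 3.49 (60.8 and 15.2), and near Mex3b, with 3.47 (121 and 28.9). At these 3 the effect was negative in NIH 3T3, and the MSC calls at all 3 were lost in some settings.

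The leading losses were near Acta2, on chromosome 19, with a difference of -5.69 (NIH 3T3 means of 2.96 and 11.2 counts), and in Cald1, on chromosome 6, with -4.98 (1.97 and 10.1) and -4.84 (7.62 and 11.8). Their MSC control means were 23.4, 23.8 and 27.3 counts, in that order. DESeq2 called none of the 3 in MSCs, and the MSC log2 fold change near Acta2 ran from -7.52 to -3.27 when 1 library was left out.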

How the results depend on the processing

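The counts of 1810 gained and 1310 lost windows depended on the tool and the limits. DESeq2 at default parameters called 1098 and 864, and fitting all 12 libraries at 4 h together gave 1143 gained and 923 lost. An adjusted p under 0.05 gave 3029 and 2332, an adjusted p under 0.01 with any fold change 5985 and 6627, and a test against a log2 fold change of 0.5 (glmTreat) 604 and 479. Leaving out 1 library gave 1327 to 1581 gained and 990 to 1211 lost. For the difference from NIH 3T3, leaving out 1 library gave 2463 to 5125 windows higher and 1049 to 1686 lower in MSCs; the highest count was without NIH 3T3 CK666 replicate 2, and the lower count was 1222 without MSC control replicate 1, 1202 without MSC control replicate 2, 1195 without MSC CK666 replicate 3 and 1049 without NIH 3T3 CK666 replicate 3. The share of counts at gene starts differed by -0.741 to -0.384 points in the same way.

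Same-numbered control and CK666 libraries did not deviate together (correlations of 0.0028, -0.0090 and 0.0205). These values cannot show whether same-numbered libraries were prepared together, which the labels do not say. With a replicate block the counts were 1872 and 1352, of which 1776 and 1285 were shared with the fit without it, and 2767 and 1278 for the difference from NIH 3T3. GC offsets gave 1749 and 1374, and GC offsets with the replicate block 1764 and 1387. Of 186 named windows, 101 were called under all 14 settings, 85 lost the call under at least 1, and 0 changed direction. At gene ends DESeq2 called 65 gained and 75 lost windows. The causes of these differences were not tested. Weak windows are where depth limits most: 294 of the gained windows had under 10 control counts.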
